A study of Mus musculus with 21 samples.

Results

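The comparison described here is the interaction of genotype with pressure overload in the mouse heart, that is, the TAC effect in G4D mice less the TAC effect in wild-type mice. TAC, transverse aortic constriction, narrows the aorta so that the left ventricle pumps against a higher pressure, and a sham operation leaves the vessel open. All 21 of the 21 arrays of the series entered it, in 4 groups read from the sample titles: wild type after sham (n = 4), wild type after TAC (n = 6), G4D after sham (n = 5) and G4D after TAC (n = 6). G4D is the gene-targeted genotype with reduced Gata4, compared with wild-type mice at baseline and under load. It was read on the 34945 of 45037 non-control probe sets that carry exactly 1 gene symbol in the platform annotation, from 18193 genes. Of these, 22661 probe sets of 13279 genes had a mean over the arrays at or above the level filter of 4.35 (log2) and were tested, and 12284 were below it. The labels give total RNA and name cardiac myocytes as the source, and they give no age, strain or time after the operation. Nothing beyond the titles says that samples of a group are separate animals, so p-values measure the spread between these samples.

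Gata4 is a zinc-finger transcription factor that binds short GATA motifs and helps to drive the genes of heart muscle. Under pressure overload the myocardium enlarges its muscle cells, turns on fetal and stress genes, lays down extracellular matrix and lowers genes of fatty acid oxidation. A positive interaction says that TAC moved a probe set further up, or less far down, in G4D than in wild type, and a negative one says the reverse. The sham arrays stand in both the interaction and the sham genotype difference, so a high or low sham group moves both by construction. Levels below are quantile-normalised log2 probe-set values, probe sets of 1 gene are told apart by their mean level over the 21 arrays, values after ± are standard errors unless called SD, and a probe set was called at an adjusted p under 0.05 by limma with Benjamini-Hochberg adjustment over all tested probe sets.

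Each array was compared with the average of its group mates, and the correlation lay between 0.963 and 0.988. The filter is a rank among all probe sets and no detection call, and 13279 of 18193 genes had a probe set above it. All 18 ventricular myocyte markers of the list used passed it, as did 23 of 24 fibroblast, 24 of 24 endothelial and 26 of 28 macrophage and myeloid markers, while 5 of 18 lymphocyte and 4 of 10 erythroid markers did. Sample 5 of G4D sham stood apart in 12 atrial myocyte genes, whose mean level was 9.35 in it and between 6.91 and 7.18 in the other 4 G4D sham samples. It was also the highest of its group in the mean level of adipocyte markers (8.68 against 7.73 to 7.88), of epicardial and mesothelial markers (5.87 against 5.33 to 5.52) and of fibroblast markers (8.71 against 8.18 to 8.45). The median interaction of the atrial genes was -0.57 with this sample and -0.05 without it. The actin control probe sets at the 3′ end exceeded those at the 5′ end by 0.49 ± 0.10 (SD) in wild-type sham, 0.34 ± 0.11 in wild-type TAC, 0.45 ± 0.10 in G4D sham and 0.26 ± 0.11 in G4D TAC. The group means of this difference were thus smaller after TAC in both genotypes. The difference is read as a sign of RNA quality, and a smaller one does not mean poorer RNA. The same difference in Gapdh was -0.17 ± 0.19 (SD) in wild-type sham, -0.23 ± 0.09 in wild-type TAC, -0.28 ± 0.05 in G4D sham and -0.20 ± 0.12 in G4D TAC, lower after TAC in wild type and higher in G4D. The part of either in the results was not tested. The precision of the values is limited by the number of arrays.

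Gata4 itself was read by 2 probe sets, and neither was called in any comparison. On the brighter, of mean level 7.92 over the 21 arrays, the wild-type sham samples read 8.29, 7.93, 8.10 and 8.10 and the G4D sham samples 7.90, 7.90, 7.70, 7.93 and 7.83. After TAC the lowest, median and highest values were 7.43, 7.80 and 8.15 in wild type and 7.64, 8.0 and 8.14 in G4D. The wild-type sham samples lay at or above nearly all G4D sham samples, and the TAC groups overlapped. The interaction was 0.42 ± 0.16 (limma adjusted p = 0.501) on this probe set and 0.15 ± 0.39 (adjusted p = 0.968) on the other, of mean level 6.39. Whether either probe set reads the part of the gene that was targeted is not given in the sources used here, so the level does not check the genotype labels. Gata6, a related factor of the heart, had interactions of -0.23, -0.55 and 0.07 on its 3 probe sets, with none called. In the same order its TAC effects in G4D were -0.38 (limma adjusted p = 0.0139), -0.70 (adjusted p = 0.00296) and -0.34 (adjusted p = 0.348). The TAC effect of Gata6 in wild type was called on none of them. Calls of lower levels with TAC in G4D depended on the scaling, as given below.

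TAC moved far more probe sets in G4D than the interaction test separated from wild type. Of 22661 tested probe sets, 1264 (5.58%) were called for TAC in wild type, 957 higher (4.22%) and 307 lower (1.35%), and 4445 (19.6%) were called in G4D, 2663 higher (11.8%) and 1782 lower (7.86%). For the interaction, 4 probe sets were called (0.0177%), and all 4 were positive. A further 34 lay between 0.05 and 0.1, which made 38 in all (0.168%), 29 positive (0.128%) and 9 negative (0.0397%), and 1763 (7.78%) had an unadjusted p under 0.05, 970 positive (4.28%) and 793 negative (3.5%). Most TAC effects kept their sign in the other genotype: of the 957 probe sets called higher in wild type 99.1% had a positive value in G4D and 55.4% a larger one, and of the 307 called lower 98% had a negative value and 60.3% a larger fall. The median TAC effect of those 957 was 0.66 in wild type, which chose them, and 0.72 in G4D. Of the 2663 called higher in G4D 92.6% had a positive value in wild type, and of the 1782 called lower 89.6% had a negative one. Over all tested probe sets, TAC effects had opposite signs in 28.6% of those with a positive interaction and 29% of those with a negative one. Between the genotypes, 11 probe sets (0.0485%) were called in sham, 6 higher (0.0265%) and 5 lower (0.0221%) in G4D, and 577 (2.55%) after TAC, 386 higher (1.7%) and 191 lower (0.843%).

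Scaling changed these splits. With the values as deposited, 126 probe sets were called for TAC in wild type, 121 higher and 5 lower, and with each array centred on its median 565, 532 higher and 33 lower. In G4D the calls were then 3317, 3238 higher and 79 lower, and 3296, 2915 higher and 381 lower. Sham calls were 6 and 3, all lower in G4D, and calls after TAC were 91, 81 higher and 10 lower, and 261, 216 higher and 45 lower. The median interaction over all tested probe sets was 0.00 after quantile normalisation, 0.13 with median centring and 0.41 with the values as deposited, and the interaction calls rose to 10 under each of the 2 other scalings, all positive.

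**Figure D1:**
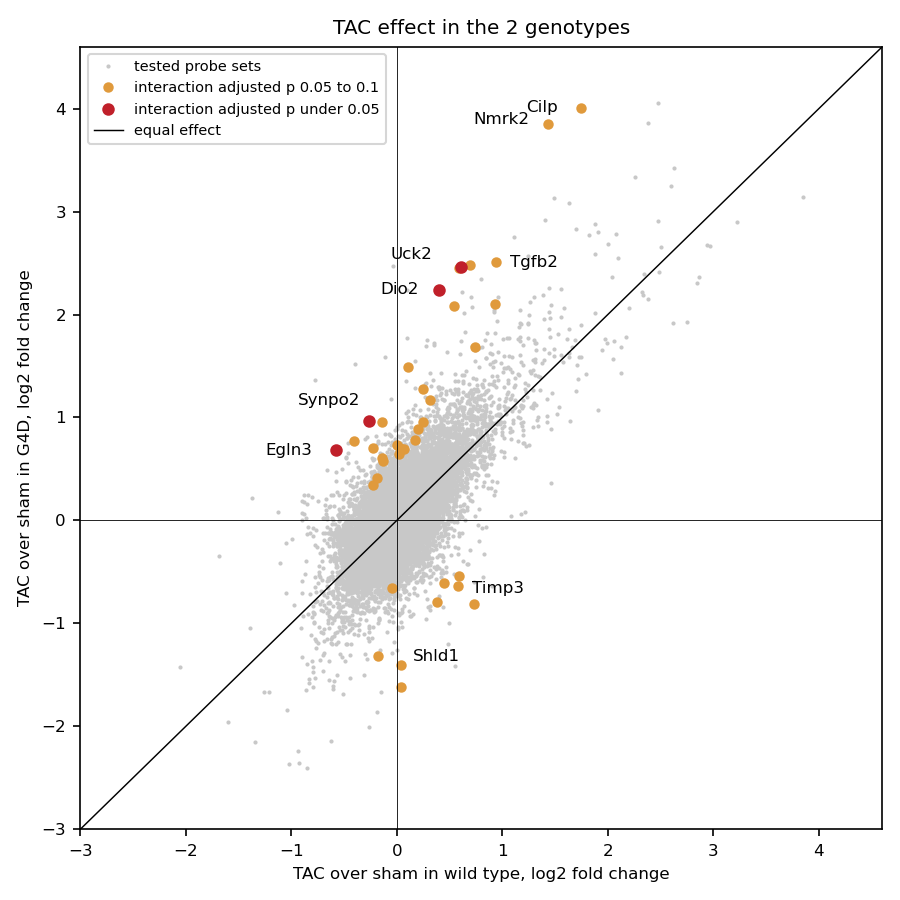
Each point is 1 tested probe set, with the TAC effect in wild type (x, log2 fold change) against that in G4D (y, log2 fold change), and the line marks equal effects. The 4 called probe sets (red) lie above the line, as do the 29 positive probe sets with an adjusted p under 0.1, while the 9 negative ones lie below it, 7 of them with TAC effects of opposite sign in the genotypes.

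Synpo2, which encodes a protein of the Z-disc that bundles actin, had the smallest p of the interaction. On its brightest probe set (mean level 9.77) the wild-type sham samples read 9.54, 9.75, 9.58 and 9.58 and the G4D sham samples 9.47, 9.37, 9.60, 9.58 and 9.69. After TAC the lowest, median and highest values were 9.26, 9.36 and 9.41 in wild type and 10.21, 10.47 and 10.84 in G4D. All G4D TAC samples lay above all other arrays, and the wild-type TAC samples lay below the wild-type sham samples. The level rose with TAC by 0.96 ± 0.10 in G4D (limma adjusted p = 1.2e-06), while the wild-type value of -0.27 ± 0.11 was not called (adjusted p = 0.169). The interaction was 1.23 ± 0.15 (limma adjusted p = 0.000798), and it stayed between 1.16 and 1.29 and called when any of the 21 arrays was left out.

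Dio2, the deiodinase that makes active thyroid hormone from its precursor inside cells, followed on the probe set of mean level 5.11. The wild-type sham samples read 3.96, 4.22, 4.42 and 4.84 and the G4D sham samples 4.35, 3.99, 4.47, 4.40 and 4.58. After TAC the lowest, median and highest values were 4.12, 4.76 and 5.27 in wild type and 5.98, 6.62 and 7.02 in G4D. The sham groups overlapped and had equal means of 4.36, and all G4D TAC samples were above the other 15 arrays. Both sham means were next to the filter level of 4.35, and samples of both sham groups lay below it. The probe set was thus read near the filter level in sham. The rise with TAC was 2.24 ± 0.20 in G4D (limma adjusted p = 2.61e-07) against 0.40 ± 0.21 in wild type (adjusted p = 0.338), and the interaction was 1.83 ± 0.29 (limma adjusted p = 0.0322). The call was lost without sample 2, 3 or 4 of wild-type sham, 3 of wild-type TAC, 2 or 3 of G4D sham, or 1, 2 or 3 of G4D TAC, where the adjusted p lay between 0.0502 and 0.0763 and the interaction between 1.67 and 1.88.

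Uck2, a kinase of the pyrimidine salvage pathway that phosphorylates uridine and cytidine, had an interaction close to that of Dio2. On its brightest probe set (mean level 7.49) the wild-type sham samples read 6.90, 6.91, 7.20 and 7.0, above the G4D sham samples at 6.01, 6.63, 6.08, 6.45 and 6.12. After TAC the lowest, median and highest values were 6.97, 7.61 and 8.36 in wild type and 8.26, 8.81 and 8.97 in G4D. The sham groups did not overlap, and after TAC the highest wild-type sample reached into the G4D range. G4D was thus lower in sham by -0.74 ± 0.23, which was not called (limma adjusted p = 0.394), and higher after TAC by 1.11 ± 0.20 (limma adjusted p = 0.00344). The interaction was 1.85 ± 0.31 (limma adjusted p = 0.0326). It remained called without sample 1, 5 or 6 of wild-type TAC, 2 or 4 of G4D sham, or 4 or 5 of G4D TAC, and the call was lost without any of the other 14 arrays, with adjusted p up to 0.0925.

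Egln3 encodes a prolyl hydroxylase that marks hypoxia-inducible factors for breakdown and is itself raised by low oxygen. On the probe set of mean level 8.81 the wild-type sham samples read 8.82, 8.93, 9.04 and 9.09 and the G4D sham samples 9.14, 8.52, 8.42, 8.51 and 8.43. After TAC the lowest, median and highest values were 7.90, 8.44 and 8.65 in wild type and 9.07, 9.29 and 9.49 in G4D. Every wild-type TAC sample lay below the wild-type sham samples, and apart from sample 1 of G4D sham every G4D TAC sample lay above the G4D sham samples. The gene fell with TAC by 0.58 in wild type (SE 0.15, limma adjusted p = 0.0271) and rose by 0.68 ± 0.14 in G4D (limma adjusted p = 0.00185). The call of the wild-type fall was lost with the values as deposited (adjusted p = 0.452), with no filter (0.0524) and without sample 2, 3 or 4 of wild-type sham or 1 of wild-type TAC (up to 0.0857). The interaction was 1.26 ± 0.21 (limma adjusted p = 0.0326), and 1.39 (adjusted p = 0.00316) without sample 1 of G4D sham. The call remained without sample 1, 5 or 6 of wild-type TAC, 1 of G4D sham, or 4, 5 or 6 of G4D TAC, and was lost without any of the other 14 arrays, with adjusted p up to 0.0939.

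**Figure D2:**
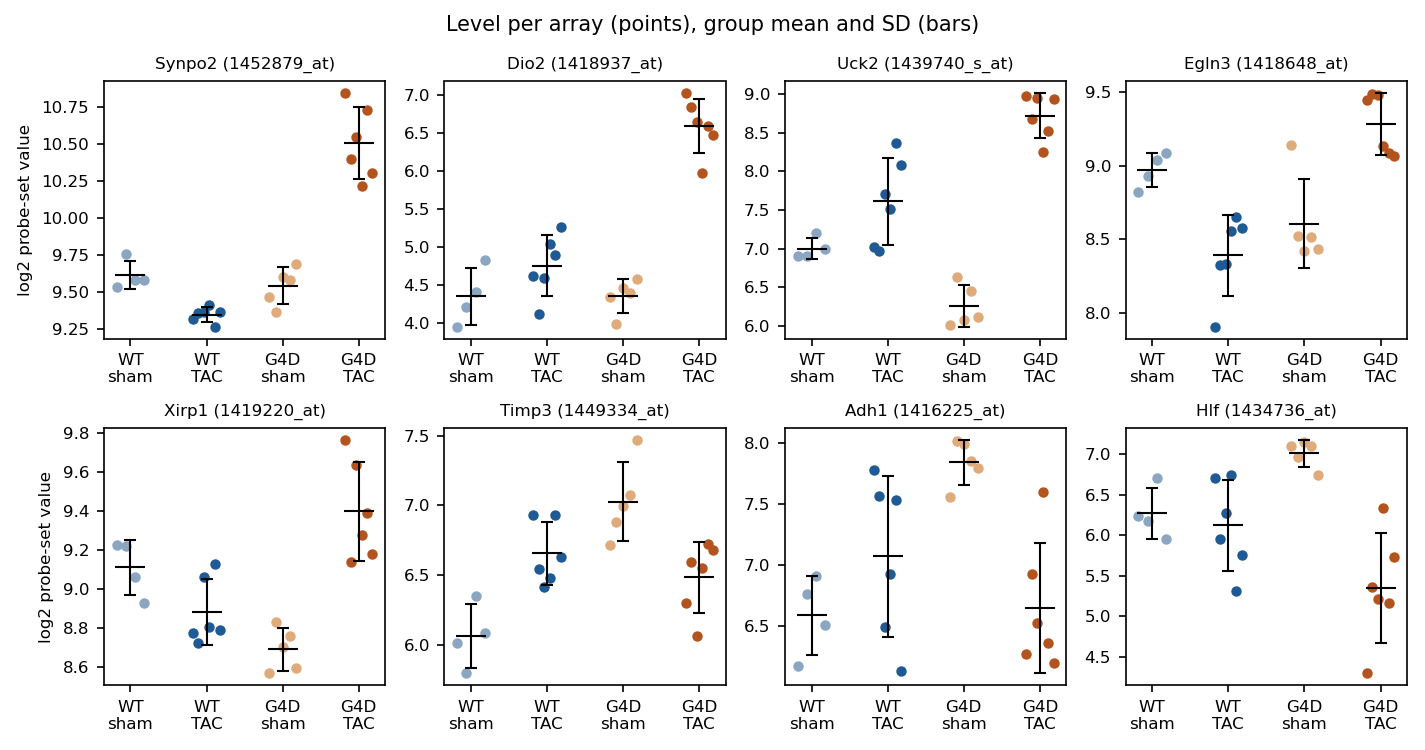
The log2 level of 8 probe sets is plotted for every array by group (WT, wild type), with the group mean and SD as bars. In the upper panels the G4D TAC samples are high (Synpo2 between 10.21 and 10.84, Dio2 between 5.98 and 7.02), while in Timp3, Adh1 and Hlf the G4D sham samples are the high group.

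The upstream sequences of the 4 called genes were examined for the GATA motif because the genotype lowers a factor that binds it. RefSeq promoters matched all 4 by symbol, and the 250 bases before the annotated start were searched on both strands for the GATA motif, spelled AGATA or TGATA with a final A or G, and for the muscle motif CATTCC (MCAT). None of the 4 windows held a GATA match, against 18.3% of 13589 promoters of tested genes, and the Dio2 window held 1 MCAT match, a motif found in 11.1% of them. Synpo2 and Dio2 are shown because their probe sets differ most among themselves (GRCm38.p6, minus strand, written 5′ to 3′, with any GATA or MCAT match in capitals). The Synpo2 window is chr3:123236150-123236399 and the Dio2 window chr12:90739039-90739288. The windows of Uck2 (chr1:167285128-167285377) and Egln3 (chr12:54203875-54204124), both on the minus strand, held neither motif.
Synpo2: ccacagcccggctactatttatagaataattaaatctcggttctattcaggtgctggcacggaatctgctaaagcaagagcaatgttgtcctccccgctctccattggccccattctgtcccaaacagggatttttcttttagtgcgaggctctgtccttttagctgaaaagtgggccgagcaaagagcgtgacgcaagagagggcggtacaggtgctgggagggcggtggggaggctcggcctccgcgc
Dio2: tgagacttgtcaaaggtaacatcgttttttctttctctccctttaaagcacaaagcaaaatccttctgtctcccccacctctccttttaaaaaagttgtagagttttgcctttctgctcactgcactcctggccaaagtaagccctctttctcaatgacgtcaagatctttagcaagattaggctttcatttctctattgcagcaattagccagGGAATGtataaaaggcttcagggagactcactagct
A match is a description of letters in this window, and a window without one says only that these letters are not in it.

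The positive probe sets that missed the threshold included further genes of the muscle cell's structure. Xirp1, an actin-binding protein of the intercalated disc, read 9.23, 9.22, 9.06 and 8.93 in wild-type sham and 8.57, 8.83, 8.70, 8.76 and 8.59 in G4D sham. After TAC its lowest, median and highest values were 8.72, 8.80 and 9.13 in wild type and 9.14, 9.34 and 9.77 in G4D. G4D was the lower genotype in sham and the higher after TAC, with no overlap in either setting, although after TAC the nearest samples were 9.13 and 9.14. Its interaction was 0.94 ± 0.17 (limma adjusted p = 0.052). Des, the intermediate filament protein desmin, had a mean of 11.02 in wild type in both settings, 10.95 ± 0.09 (SD) in G4D sham and 11.68 ± 0.20 (SD) in G4D TAC, and its lowest G4D TAC sample at 11.33 was above all other arrays. The interaction of Des was 0.73 ± 0.14 (limma adjusted p = 0.0931).

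Signalling genes were also among the positive values that missed the threshold. Rcan1, an inhibitor of calcineurin whose transcript calcineurin signalling raises, read 8.94, 8.70, 8.40 and 9.01 in wild-type sham and 8.65, 8.24, 8.61, 8.65 and 8.36 in G4D sham. After TAC its lowest, median and highest values were 8.74, 9.30 and 9.82 in wild type and 10.04, 10.65 and 11.22 in G4D, above every other array. The interaction of Rcan1 was 1.54 ± 0.30 (limma adjusted p = 0.0931). Tgfb2, a ligand of the TGF-beta family, read 5.33, 5.46, 5.65 and 5.29 in wild-type sham, 5.87, 5.14, 5.13, 6.19 and 6.12 in G4D sham, 5.96 to 6.86 in wild-type TAC and 7.61 to 8.73 in G4D TAC. It rose with TAC in both genotypes, by 0.94 ± 0.23 (limma adjusted p = 0.0185) in wild type and by 2.51 ± 0.22 (limma adjusted p = 2.19e-07) in G4D, with an interaction of 1.57 ± 0.32 (limma adjusted p = 0.0931). Its rise in wild type was not called with the values as deposited (adjusted p = 0.359) or without sample 1 or 4 of wild-type sham or 4 of wild-type TAC (up to 0.0617). The other genes that the naming rule took in this direction were Garem1 (0.75 ± 0.14), an adaptor of growth factor signalling, Fam20c (0.69 ± 0.14), a kinase of the secretory pathway, Spcs3 (0.70 ± 0.14), a subunit of signal peptidase, and Dusp27 (0.61 ± 0.12), with adjusted p of 0.0931 for each.

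Some genes with positive interactions rose with TAC in both genotypes, although the interaction of none of the 3 given here was called. Cilp, a secreted matrix protein that also stands in cartilage, read 5.55, 5.27, 5.69 and 5.77 in wild-type sham and 5.88, 4.49, 6.10, 6.56 and 6.02 in G4D sham, then 7.06 to 8.02 in wild-type TAC and 8.53 to 10.62 in G4D TAC. It rose by 1.74 ± 0.34 in wild type (limma adjusted p = 0.00405) and by 4.01 ± 0.32 in G4D (limma adjusted p = 1.18e-07), and the TAC groups did not overlap. The interaction of Cilp was 2.26 ± 0.47 (limma adjusted p = 0.0931). Nmrk2, a kinase that turns nicotinamide riboside into a precursor of NAD, rose by 1.43 ± 0.38 (limma adjusted p = 0.0285) and by 3.85 ± 0.36 (limma adjusted p = 4.39e-07), with an interaction of 2.42 ± 0.52 (adjusted p = 0.0931). Its rise in wild type was not called with the values as deposited (adjusted p = 0.147), with no filter (0.0595) or without sample 1, 2 or 3 of wild-type sham or 5 or 6 of wild-type TAC (up to 0.0998). Its G4D sham samples spread from 3.54 to 6.44, the widest of its groups. Thbs4, a matricellular thrombospondin, had an interaction of 1.64 ± 0.40 (limma adjusted p = 0.182).

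No negative interaction was called with limma, where 793 probe sets had an unadjusted p under 0.05 in that direction (3.5%) and the alternatives gave between 0 and 8 negative calls. Timp3, a matrix-bound inhibitor of metalloproteinases, had the smallest p among them. On the probe set of mean level 6.58 the wild-type sham samples read 6.02, 5.80, 6.35 and 6.09 and the G4D sham samples 6.72, 6.88, 7.0, 7.07 and 7.47, without overlap. After TAC the lowest, median and highest values were 6.42, 6.59 and 6.93 in wild type and 6.06, 6.57 and 6.72 in G4D, which overlapped. Timp3 was higher in G4D in sham by 0.96 ± 0.16 (limma adjusted p = 0.0242), rose with TAC in wild type by 0.59 ± 0.16 (limma adjusted p = 0.0269) and fell by 0.54 in G4D (SE 0.15, limma adjusted p = 0.0118). The sham difference was no longer called with the values as deposited (adjusted p = 0.546), with median centring (0.497), with no filter (0.0665) or without sample 1, 2 or 4 of wild-type sham or 4 or 5 of G4D sham (up to 0.111). The rise in wild type was lost under both other scalings (adjusted p = 0.802 and 0.167), with no filter (0.0522) and without sample 1, 2 or 4 of wild-type sham or 1 or 5 of wild-type TAC (up to 0.11), and the fall in G4D under both other scalings, where it was -0.16 (adjusted p = 0.671) and -0.37 (adjusted p = 0.228). The interaction was -1.13 ± 0.21 (limma adjusted p = 0.0931).

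Several other negative values shared a high G4D sham group. Shld1, a subunit of the shieldin complex of DNA repair, read 7.03, 7.10, 7.20 and 7.11 in wild-type sham and 8.12, 8.21, 8.35, 8.22 and 7.68 in G4D sham. Its lowest, median and highest values after TAC were 6.63, 7.22 and 7.60 in wild type and 6.16, 6.57 and 7.62 in G4D, so that all G4D sham samples were above the other 16 arrays. The interaction of Shld1 was -1.44 ± 0.30 (limma adjusted p = 0.0931). Herpud1, a protein of the breakdown of misfolded proteins at the endoplasmic reticulum, read 9.31, 9.09, 9.64 and 9.20 in wild-type sham and 9.85, 10.27, 9.99, 9.80 and 9.71 in G4D sham, 8.83 to 9.51 in wild-type TAC and 8.24 to 9.21 in G4D TAC. Here too the G4D sham samples lay above all other arrays, and the interaction was -1.14 ± 0.24 (limma adjusted p = 0.0931). Adh1, an alcohol dehydrogenase that also oxidises retinol, had a value of -1.68 ± 0.40 (limma adjusted p = 0.169). Its wild-type sham samples read 6.17, 6.77, 6.91 and 6.51, its G4D sham samples 7.56, 8.02, 8.0, 7.85 and 7.80, its wild-type TAC samples 6.13 to 7.78 and its G4D TAC samples 6.20 to 7.60. Only the sham groups did not overlap between the genotypes.

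The remaining negative genes under the rule were Ifitm1, an interferon-induced membrane protein (-1.18 ± 0.26, limma adjusted p = 0.0973), Psmd7, a proteasome subunit (-1.05 ± 0.22, adjusted p = 0.0931), Prepl, a serine hydrolase (-0.91 ± 0.21, adjusted p = 0.168), Fam124b (-0.61 ± 0.13), Rapgef5, an exchange factor of Rap proteins (-0.59 ± 0.14), and Rbm24, a splicing factor of muscle (-0.43 ± 0.10). The rule also took Tbata, whose means were below the filter level in wild-type sham and G4D TAC and whose value is therefore not read. Of the 9 negative probe sets with an adjusted p under 0.1, all 9 had a larger absolute genotype difference in sham than after TAC, and 7 had TAC effects of opposite sign in the genotypes. Of the 29 positive ones, 22 had the larger genotype difference after TAC and 7 in sham, 9 had TAC effects of opposite sign and 20 had TAC effects of 1 sign with the larger in G4D. Among all tested probe sets with a negative interaction, 49.1% had the larger genotype difference in sham and 29% had TAC effects of opposite sign. Among those with a positive one the shares were 54.8% and 28.6%, and 41.8% had TAC effects of 1 sign with the larger in G4D. In 15 of the 29 all G4D TAC samples were above the other 15 arrays, and in 27 they did not overlap G4D sham. These counts describe probe sets chosen on the same contrast and carry no test. Such a choice favours groups that stand apart, and the share without overlap over all tested probe sets was not counted. In 18 of the 38, 13 positive and 5 negative, the G4D TAC array nearest the other groups was sample 4, against 8, 6, 3, 2 and 1 in the other 5. Without sample 4 of G4D TAC, 25 probe sets were called, 17 positive and 8 negative, among them Shld1 (-1.62, limma adjusted p = 0.00874), Herpud1 (-1.26, adjusted p = 0.0225), Timp3 (-1.15, adjusted p = 0.0452) and Adh1 (-1.87, adjusted p = 0.0447).

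Different probe sets of a gene read different stretches of its transcripts, and 5642 genes had at least 2 tested. Over 9382 pairs of the brightest probe set with another of its gene, the interaction had the same sign in 61.2%. Where the brightest had an unadjusted p under 0.05 the sign was shared in 77.9% of 791 pairs, the other probe set was also under 0.05 with that sign in 25.2%, and 5 pairs had opposite signs with both under 0.05. Where the brightest had an adjusted p under 0.1, 20 of 23 pairs shared the sign, and 15 of these had an unadjusted p under 0.05 on the other probe set. Of the 791 pairs whose brightest had an unadjusted p under 0.05, 509 had both levels at or above the 60th percentile, and 83.9% of these shared the sign. In 282 the other probe set was below that percentile, and 67% of these shared the sign. Probe sets of a gene share their arrays, so these shares describe reading of the same samples and are no replication.

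The difference of the interaction between 2 probe sets of a gene was tested within arrays, and 1 of 9382 pairs was called (0.0107%), with 419 (4.47%) at an unadjusted p under 0.05. The pair was in Dio2. Its brightest probe set, of mean level 6.42, read between 6.28 and 6.68 in wild-type sham, 6.09 and 6.66 in wild-type TAC, 6.24 and 6.60 in G4D sham and 6.26 and 6.47 in G4D TAC, with all groups overlapping. Its interaction was -0.04 ± 0.14 and that of the probe set at 4.38 was 0.14 ± 0.32, against 1.83 ± 0.29 on the called one at 5.11. The brightest less the called probe set gave a difference of -1.88 ± 0.29 (limma adjusted p = 0.0221), and the call was lost without any of 11 arrays, with adjusted p up to 0.106, and under the 2 other scalings (adjusted p = 0.1). Those 11 were sample 2, 3 or 4 of wild-type sham, 1 or 3 of wild-type TAC, 1, 2 or 5 of G4D sham and 1, 2 or 3 of G4D TAC.

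Synpo2 was read above the filter by 3 probe sets. The interaction was 1.23 on the brightest, 0.95 ± 0.27 on the probe set of mean level 7.90 and -0.01 ± 0.16 on that of mean level 6.26. On the last of these the level fell with TAC in both genotypes, by 0.52 in wild type (limma adjusted p = 0.00903) and by 0.53 in G4D (limma adjusted p = 0.00137), and neither fall was called with the values as deposited (adjusted p = 0.541 and 0.555) or with median centring (0.0784 and 0.0631). Its wild-type TAC samples lay between 5.88 and 6.28 and its G4D TAC samples between 5.85 and 6.32, so the genotypes overlapped. The difference between the brightest and this probe set was 1.24 ± 0.22 (limma adjusted p = 0.0593). It was called with the values as deposited and with median centring (1.36, limma adjusted p = 0.00894 for each). A floor at the filter level (1.24, adjusted p = 0.0492) and array weights (1.38, adjusted p = 0.00432) also gave a call. With single arrays left out, it was called without sample 4 of G4D TAC (1.36, adjusted p = 0.00307) or sample 3 of G4D sham (1.30, adjusted p = 0.0453). The pair next in order had an adjusted p of 0.985.

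Uck2 and Egln3 had positive values on each probe set, close to each other in Egln3 and from 0.47 to 1.86 in Uck2. In Uck2 the interaction was 1.86 ± 0.32 on the probe set of mean level 5.85 (limma adjusted p = 0.0501), 1.79 ± 0.37 on that at 6.60, 1.18 ± 0.23 on that at 7.45 and 0.47 ± 0.26 on that at 7.17, and 0.58 ± 0.45 on that at 3.74, which was below the filter. On the probe set at 7.45 the sham groups had means of 6.66 ± 0.21 (SD) in wild type and 6.52 ± 0.30 in G4D, so the low G4D sham level of the brightest was not seen there. In Egln3 the other probe set gave 1.17 ± 0.25 (limma adjusted p = 0.0931). Fam20c gave 0.69 and 1.38 on 2 probe sets and -0.05 on another, and Psmd7 gave -1.05 on the probe set of mean level 5.0 and -0.06 ± 0.17 on its brightest, at 8.51.

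**Figure D3:**
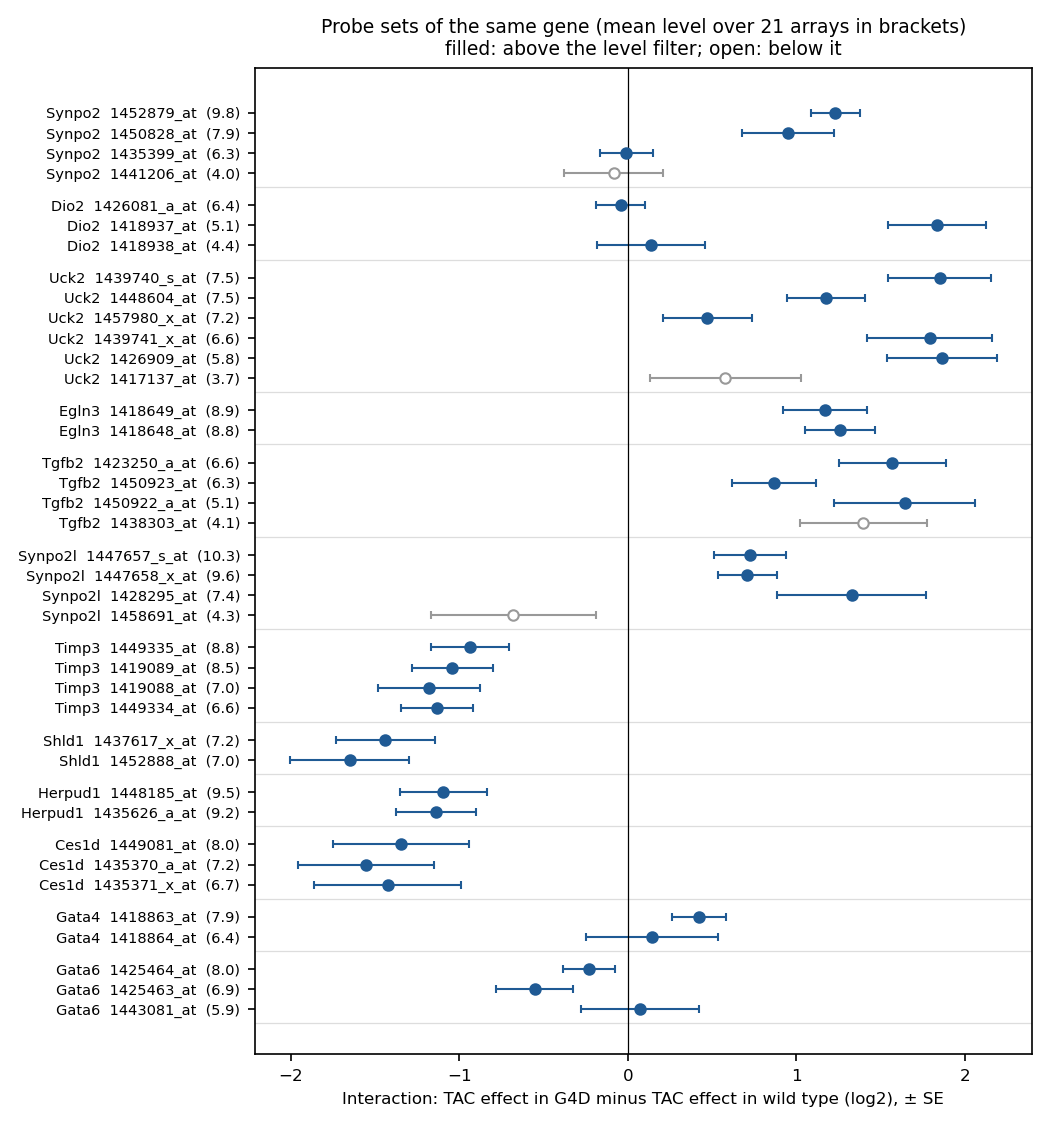
Each row is 1 probe set of a gene with its interaction (x, log2) and standard error, its mean level over the 21 arrays in brackets, and open symbols below the level filter. The 4 probe sets of Timp3 lie between -1.18 and -0.94, while those of Dio2 and Synpo2 include values near 0 beside 1.83 and 1.23.

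Read over the whole set, 103 of the 5642 genes (1.83%) had an unadjusted p under 0.05 and the same sign on every tested probe set, 64 positive and 39 negative. The share was 2.63% of the genes with 2 tested probe sets, 0.939% with 3 and 0.221% with 4 or more. With at least 3 there were 15 of 2291 genes (0.655%), named here after their values were seen. Timp3 had -1.18 to -0.94 and Cpeb3, a regulator of translation, -0.75 to -0.45 over 4 each. Positive on 3 each were Synpo2l, a Z-disc relative of Synpo2 (0.71 to 1.33), Clock (0.50 to 1.02), Slc41a3 (0.68 to 1.09) and Rap2c (0.37 to 0.54). Negative on 3 each were Ces1d, a carboxylesterase (-1.56 to -1.35), Zbtb16, a zinc-finger repressor (-1.54 to -0.93), Prepl (-1.05 to -0.43), Nampt, the rate-limiting enzyme of NAD salvage (-0.82 to -0.65), Inpp5k (-0.51 to -0.36) and Hadh, an enzyme of fatty acid oxidation (-0.47 to -0.27). The other 3, all positive, were Tgfb2, Vgll3, a cofactor of TEAD factors, and Col8a1, a network collagen, in each of which at least 1 probe set had group means below the filter level and passed through its high groups. In Col8a1 that probe set had sham means of 3.86 in wild type and 3.91 in G4D. Without such genes 96 of the 103 are left, 58 positive and 38 negative, and 12 of the 15. With the mean of a gene's tested probe sets in place of single ones, an alternative added after the data were seen, 0 of 13279 genes were called with limma and 1067 had an unadjusted p under 0.05, and Uck2 (1.43 ± 0.24), Xirp1, Synpo2 (0.72 ± 0.13), Egln3 (1.21 ± 0.22) and Hbegf, a growth factor of the EGF family (0.84 ± 0.16), were among the genes with the smallest adjusted p, 0.0607 each.

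**Figure D4:**
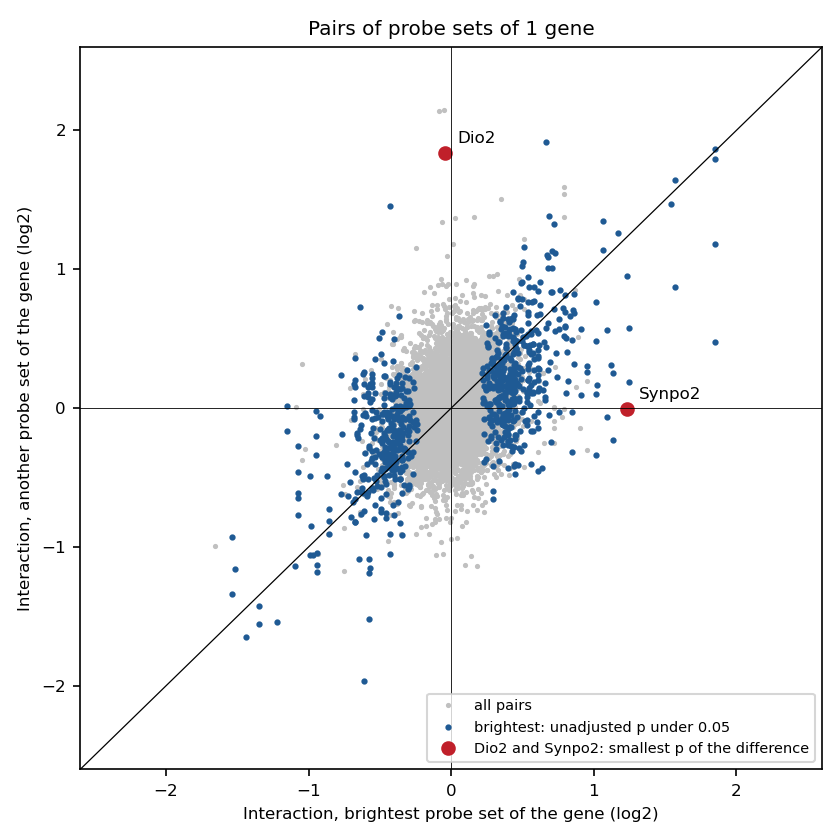
For each pair of probe sets of 1 gene, the interaction of the brightest (x, log2) is plotted against that of another (y, log2), and the line marks equal values. Pairs whose brightest probe set had an unadjusted p under 0.05 are blue, of which 77.9% share the sign, and the Dio2 and Synpo2 pairs (red) lie far from the line.

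Gene lists were chosen with earlier results of these data known, so their counts beside those of all genes are descriptions and no test. The lists were described by the brightest probe set of each gene, beside 13279 genes with a median interaction of 0.01, of which 51.6% were positive and 7.97% had an unadjusted p under 0.05, 4.3% in the positive and 3.67% in the negative direction. In the Z-disc and sarcomere list, 41 of 45 members passed the filter, the median was 0.00, and 8 members were positive and 2 negative at that p. The 8 were Synpo2, Xirp1, Des, Fhl1 (0.80 ± 0.20), a LIM protein, Flnc, a filamin (0.54 ± 0.14), Synpo2l (0.72 ± 0.21), Mypn, myopalladin (0.34 ± 0.14), and Ankrd23 (0.41 ± 0.18). Ankrd1, a stress-induced ankyrin protein, was negative at -0.67 ± 0.20 and Tcap, the titin cap, at -0.51 ± 0.20. Ankrd1 rose with TAC by 1.64 ± 0.15 in wild type (limma adjusted p = 6.52e-06) and by 0.97 ± 0.14 in G4D (limma adjusted p = 4.42e-05) and was already higher in G4D in sham by 0.95 ± 0.15 (limma adjusted p = 0.0166). The sham call of Ankrd1 was lost with the values as deposited (adjusted p = 0.546), with median centring (0.662) and without sample 1, 2 or 4 of wild-type sham or 1, 4 or 5 of G4D sham (up to 0.111). Of 20 tested fetal and hypertrophic genes, 12 rose and 1 fell with TAC in wild type and 16 rose and 1 fell in G4D, where the shares of all genes were 4.66% up and 1.62% down in wild type and 12.4% up and 8.62% down in G4D. Their median interaction was 0.16, with 6 positive and 2 negative at an unadjusted p under 0.05. Among those without a small interaction p were Nppb, brain natriuretic peptide (0.33 ± 0.31), and Myh7, the slow myosin heavy chain (-0.69 ± 0.53).

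Extracellular matrix genes had the highest median of the function lists, 0.44. Of 50 members 44 passed the filter, 38 of these had a positive interaction, and 15 were positive (34.1%) and 1 negative (2.27%) at an unadjusted p under 0.05, with 0 called after adjustment. With TAC, 33 rose in wild type, and 39 rose and 1 fell in G4D, beside 4.66% and 12.4% of all genes that rose. The mean level of the list ran from 7.25 to 7.33 in wild-type sham and 7.14 to 7.63 in G4D sham. After TAC it ran from 8.05 to 8.82 in wild type and 8.28 to 9.24 in G4D, where sample 4 was lowest. The TAC groups thus overlapped, and genes of the list share their arrays. Besides Cilp and Thbs4 the 15 included Emilin1, an elastic fibre glycoprotein (0.72 ± 0.18), Loxl1, a collagen and elastin cross-linking enzyme (0.71 ± 0.19), Vcan, versican (0.86 ± 0.29), Mmp14, a membrane metalloproteinase (0.91 ± 0.34), Comp (1.05 ± 0.40), and the collagens Col4a1, Col4a2, Col6a1, Col6a2, Col6a3, Col8a1 and Col15a1 (0.43 to 0.73). The last of the 15 was Tnc, tenascin C, with sham means of 3.04 in wild type and 2.54 in G4D, below the filter level, and 5.52 and 6.60 after TAC, so its interaction is not read, and 14 positive genes are left without it. The negative one was Timp3. Values as deposited gave a list median of 0.93 beside 0.41 for all probe sets, and leaving out single arrays gave 0.38 to 0.51. The fibroblast marker list moved with TAC as well, with 13 of 23 genes called higher in wild type and 16 higher and 2 lower in G4D. Its mean level ran from 8.15 to 8.25 in wild-type sham, 8.53 to 9.09 in wild-type TAC, 8.18 to 8.71 in G4D sham and 8.90 to 9.31 in G4D TAC, with a median interaction of 0.17, and its part in the matrix values was not tested. In such RNA, more cells of a type and more RNA per cell cannot be told apart.

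The TGF-beta and BMP list held ligands, a signal transducer, a co-receptor, an inhibitor and targets that differed in sign. Of 36 tested genes of 44, 5 were positive and 3 negative at an unadjusted p under 0.05, with a median of 0.04. One of the 5, the latent binding protein Ltbp2, had sham means of 3.45 in wild type and 3.42 in G4D, below the filter level, and 5.82 and 7.28 after TAC, so it passed the filter through the TAC groups alone, its interaction is not read here, and 4 positive genes are left without it. Those 4 were the ligands Tgfb2 and Tgfb3 (0.61 ± 0.22), the signal transducer Smad3 (0.53 ± 0.20) and the matricellular target Ccn1 (0.54 ± 0.19). The co-receptor Tgfbr3 (-0.44 ± 0.16), the BMP inhibitor Grem1 (-0.38 ± 0.14) and the BMP target Id1 (-0.57 ± 0.17) were negative. None of these was called.

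Genes of fatty acid oxidation and PPAR targets had a median interaction of -0.15, with 8 of 39 negative (20.5%) and 0 positive at an unadjusted p under 0.05. With TAC 2 of them fell in wild type and 25 in G4D, where 1.62% and 8.62% of all genes fell. The 8 were Acaa2, the mitochondrial thiolase (-0.52 ± 0.19), Slc27a1, a fatty acid transporter (-0.58 ± 0.23), the nuclear receptors Ppara (-0.40 ± 0.17) and Esrrg (-0.36 ± 0.13), Eci1 (-0.39 ± 0.15), Hadha (-0.32 ± 0.13), Eci2 (-0.31 ± 0.13) and Hadh (-0.27 ± 0.11). The sign of the list's median depended on the scaling: it was 0.33 with values as deposited, where all probe sets had 0.41, and 0.06 with median centring, where they had 0.13. Oxidative phosphorylation had 0 of 49 genes in either direction and a median of -0.04, and the citric acid cycle 0 of 21 and -0.09.

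Clock genes had the lowest median of the function lists, -0.55, with 7 of 16 negative and 2 positive at an unadjusted p under 0.05 and 0 called. Hlf, a PAR bZIP output factor of the clock, read 6.24, 6.17, 6.71 and 5.96 in wild-type sham and 7.11, 6.97, 7.15, 7.10 and 6.75 in G4D sham, then 5.31 to 6.75 in wild-type TAC and 4.29 to 6.33 in G4D TAC. Its G4D sham samples lay above wild-type sham and above G4D TAC, and its interaction was -1.52 ± 0.41 (limma adjusted p = 0.253). Tef, a factor of the same family, had 8.24 to 8.65 in wild-type sham, 9.07 to 9.29 in G4D sham, 7.95 to 9.08 in wild-type TAC and 7.84 to 9.05 in G4D TAC, with an interaction of -0.99 ± 0.29. The repressors Ciart (-1.49 ± 0.46), Per3 (-1.07 ± 0.51), Cry2 (-0.66 ± 0.25), Nr1d2 (-0.65 ± 0.19) and Per2 (-0.61 ± 0.27) were negative as well, while the activator Clock (0.50 ± 0.19) and the repressor Nr1d1 (0.88 ± 0.39) were positive. The median of the list was 0.40 for G4D over wild type in sham and -0.11 after TAC, with 0 genes called in either. Its median TAC effect was 0.02 in wild type, with 0 called, and -0.48 in G4D, with 2 called higher and 6 lower. Over all genes, 12.4% were called higher and 8.62% lower with TAC in G4D. Its mean level ran from 6.43 to 6.78 in wild-type sham, 6.72 to 7.12 in G4D sham, 6.30 to 6.82 in wild-type TAC and 6.20 to 6.88 in G4D TAC, where sample 4 was highest.

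**Figure D5:**
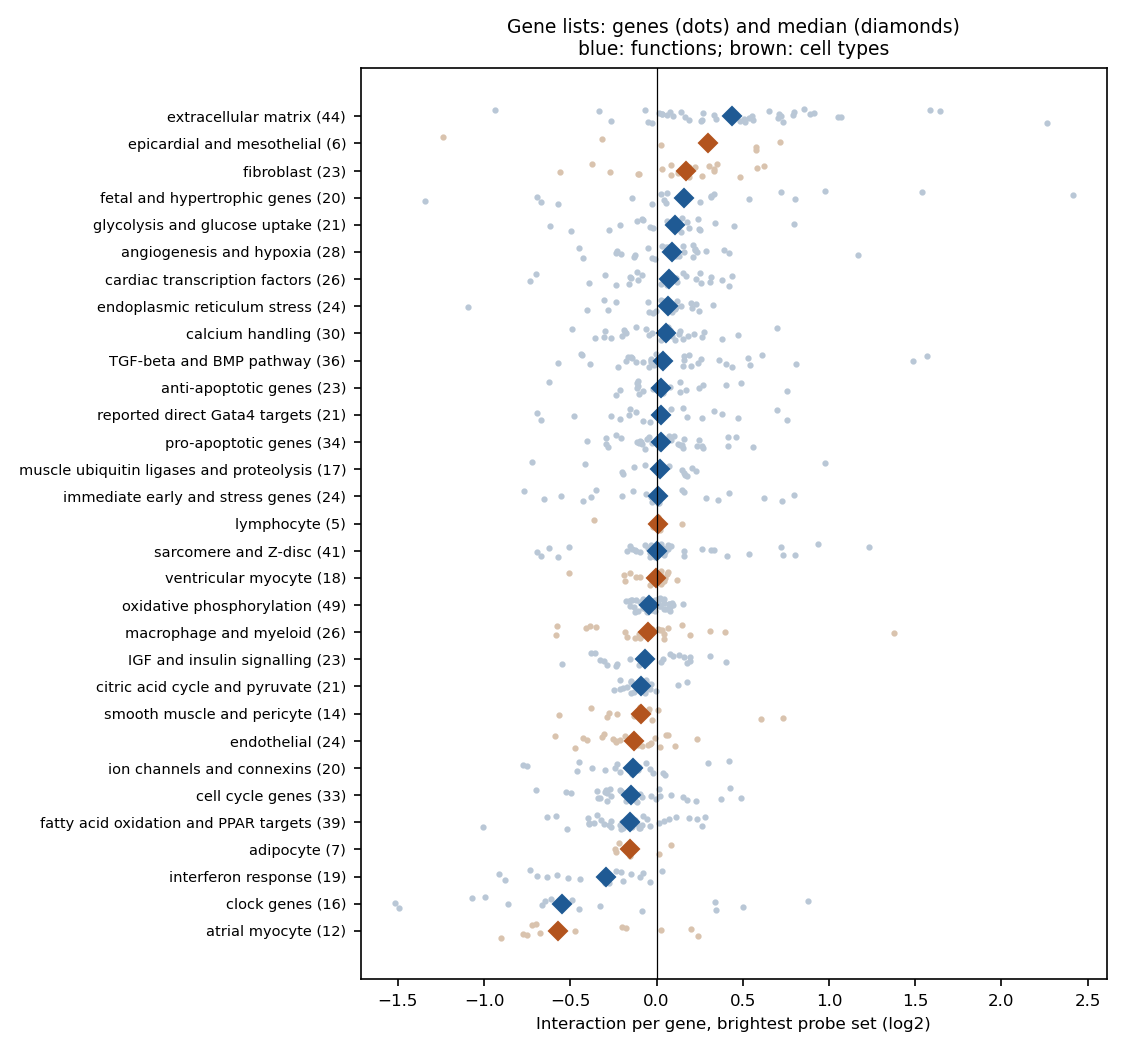
Dots are genes of a list by the interaction of their brightest probe set (x, log2), diamonds are list medians, and the number of tested genes is in brackets for the 31 lists with at least 5. Extracellular matrix lies highest of the function lists at 0.44 and clock genes lowest at -0.55, while the atrial list at -0.57 rests on sample 5 of G4D sham.

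Genes reported in the literature as direct Gata4 targets had a median of 0.03, with 4 of 21 positive and 2 negative at an unadjusted p under 0.05. Bcl2, an inhibitor of apoptosis (0.76 ± 0.23), Slc8a1, the sodium-calcium exchanger (0.70 ± 0.28), Camk2b (0.47 ± 0.19) and Mef2c, a myogenic factor (0.38 ± 0.15), were positive, and Ankrd1 and Cdk4, a cell cycle kinase (-0.27 ± 0.12), were negative. The sign of this median was not stable: it was -0.04 without sample 4 of wild-type sham or sample 1 of G4D sham, and -0.03 without sample 5 of wild-type TAC or sample 1 of G4D TAC. Among 26 cardiac transcription factors, Gata4, Mef2c and Srf (0.44 ± 0.17) were positive and Klf15 (-0.73 ± 0.28), Tbx5 (-0.70 ± 0.28) and Hopx (-0.39 ± 0.16) negative at that p. Tbx5 was highest in sample 5 of G4D sham, the sample high in atrial genes. Cell cycle genes rose with TAC in both genotypes, 26 of 33 in wild type and 28 of 33 in G4D (4.66% and 12.4% over all genes), with medians of 1.07 and 1.00, and 0 positive and 1 negative interaction at an unadjusted p under 0.05.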

How the data were processed

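Total RNA of 21 mouse heart samples was read on Affymetrix arrays with 1 value per probe set. The deposited values are on a log2 scale, which was read from their range of -13.5 to 15.1 because no source used here states it. PLIER is named in the submitters' processing notes, with its version not stated, and whether the authors normalised between arrays is not given in the sources used here. Array medians ran from 4.31 to 5.33, so values were quantile normalised. limma 3.58.1 in R 4.3.3 (lmFit, contrasts.fit and eBayes, after tests on simulated data) fitted the 4 group means in 1 model with 17 residual degrees of freedom. Probe sets entered with exactly 1 gene symbol and a mean over the arrays at or above the 40th percentile of the 45037 non-control probe sets. Of these 45037, 932 had several symbols and 9160 none.

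Probe sets whose annotation repeats 1 symbol were counted as having several. The other reading was tried first, and its 7 calls had been seen when the stricter one was chosen. Those 7 were the 4 of the report, a second Uck2 probe set (mean level 5.85), 1110002E22Rik and Xirp1, the last 3 at a limma adjusted p of 0.0446. It is kept as an alternative.

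Named genes were the called ones and then those of smallest p up to 12 in each direction, up to 3 of each function list, Gata4, Gata6 and 8 pairs of probe sets; clone-type symbols were left out and 1 gene under this rule is not reported here. Others named from a list are its members with an unadjusted p under 0.05. The members and lists were chosen with earlier results of these data known. Of 883 list entries in 33 lists, 821 matched a symbol. Genes with a group mean below the filter level were counted after the data were seen. Symbols were matched to RefSeq promoters for 10656 of 13279 tested genes.

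Samples with the same number in different groups did not deviate together: their correlations ran from -0.359 to 0.374 over 28 pairs, with 9 above 0.1, so the numbers were not taken to pair them. Alternatives changed the scaling, filter, floor, prior, array weights, choice of probe set, replicate block and each single array.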

Additional observations from a re-analysis of the deposited data

Results flagged for a closer look

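The TAC effect differed between G4D and wild type by limma's interaction test in Synpo2 (1.23), Dio2 (1.83), Uck2 (1.85) and Egln3 (1.26), all log2 values with the adjusted p given above.

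Single samples far from the rest of their group were found in 25 of 404 groups of 4 to 6 values (6.19%), where chance gives about 1 in 20. The values are log2 levels. In wild-type sham, sample 1 was highest in C2cd2l (6.04), sample 3 highest in Klf15 (7.72) and lowest in Ltbp2 (3.30), and sample 4 highest in Scly on the probe set of mean level 4.64 (4.98). Sample 2 of that group was lowest in Gata4 on the probe set of mean level 6.39 (5.68), Scly on the probe set of mean level 5.11 (5.09) and Uchl1 (4.87). In wild-type TAC, sample 4 was highest in Cilp (8.02) and Spcs3 (8.79), and sample 2 was lowest in Gata6 on the probe set of mean level 8.0 (7.75) and highest in Nol3 (8.13).

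In G4D sham, sample 1 was highest in Egln3 (9.14) and sample 5 highest in Tbx5 (6.83) and lowest in Scly on the probe set of mean level 5.11 (4.44). Sample 3 of that group was highest in Casp2 (6.70) and lowest in Nr1d2 (9.64) and Gata4 on the probe set of mean level 6.39 (5.90). In G4D TAC, sample 3 was lowest in Gata4 on the probe set of mean level 6.39 (5.24), Gata6 on the probe set of mean level 6.90 (5.79) and Trim63 (9.88), and highest in Gata6 on the probe set of mean level 5.92 (6.62). Sample 4 of G4D TAC was lowest in Fam124b (5.20) and highest in Kcnip2 (9.88), sample 1 lowest in Ppp1r1a (5.26) and sample 2 highest in Dnajb9 (8.84).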

How the results depend on the processing

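The direction of each called interaction held under every alternative that could be computed for it, while the number of calls did not. Against 4 calls, there were 10 with the values as deposited, 10 with median centring, 11 with a floor at the filter level, 10 with an intensity trend and robust prior, 23 with array weights, 2 on the brightest probe set of each gene and 1 with no filter, where Dio2, Uck2 and Egln3 had a limma adjusted p of 0.0897. With alternatives chosen after the data were seen there were 7 calls when repeated symbols counted as 1 and 0 on gene means. For TAC in wild type, 1264 calls became 126 as deposited, 565 with median centring and 1962 with array weights. For the genotypes in sham, 11 calls became 6 as deposited, 3 with median centring, 6 with no filter, 19 with the filter at the 60th percentile, 17 with the trend and robust prior and 7 on the brightest probe sets. After TAC, 577 calls became 91, 261 and, with array weights, 1111. Pairs of probe sets gave 2 calls with no filter, with the floor or with array weights, and 0 at the 60th percentile or among genes with exactly 2 probe sets, where 241 and 156 pairs had an unadjusted p under 0.05 by limma.

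With the replicate block, which the numbers do not justify, there was 1 interaction call (Synpo2, limma adjusted p = 0.0164), while Dio2 and Uck2 had 0.117 and Egln3 0.221. The block gave 599 calls for TAC in wild type, 1 in sham, 365 after TAC and 0 pairs, with 381 pairs at an unadjusted p under 0.05.

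Leaving out 1 array at a time gave 1 to 25 interaction calls, 720 to 1533 for TAC in wild type, 3569 to 5090 for TAC in G4D, 1 to 36 in sham, 317 to 820 after TAC and 0 to 2 pairs. Interaction calls were 1 without sample 2, 3 or 4 of wild-type sham, 3 of wild-type TAC, 3 of G4D sham, or 1 or 2 of G4D TAC, and 2 without sample 1 of wild-type sham, 2 or 4 of wild-type TAC, 2 or 5 of G4D sham, or 3 of G4D TAC; the 25 were without sample 4 of G4D TAC. TAC calls in wild type fell to 720, 788, 805 and 837 without samples 1 to 4 of wild-type sham and to 787 without sample 4 of wild-type TAC. Calls after TAC were 364 without sample 1 of wild-type TAC and 317 without sample 1 of G4D TAC. Sham calls were 1 without sample 1, 2 or 4 of wild-type sham or 4 or 5 of G4D sham, 2 without sample 1 and 36 without sample 2 of G4D sham, and 7 without sample 3 of wild-type sham. Of the interaction values of single genes and pairs, 4 lost a call under at least 1 alternative (Dio2, Uck2, Egln3 and the Dio2 pair), 18 gained one and 0 reversed. The cause of these changes was not tested. The filters also changed the number of probe sets tested, and the part of that was not tested separately.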

Other observations

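Interferon response genes had a median interaction of -0.29, with 18 of 19 tested genes below 0, where 51.6% of all genes were above it. At an unadjusted p under 0.05, 3 were negative and 0 positive, and 0 were called by limma. The 3 were Oas2 (-0.58 ± 0.21) and Oasl2 (-0.91 ± 0.38), of the oligoadenylate synthetase family, and Ifi35 (-0.29 ± 0.12). The list's median TAC effect was 0.28 in wild type and -0.04 in G4D. With the values as deposited its median interaction was 0.05, where all probe sets had 0.41. Its mean level ran from 5.50 to 6.27 in wild-type sham and 6.08 to 6.55 in wild-type TAC. In G4D it ran from 5.59 to 6.47 in sham and 5.59 to 6.32 after TAC. All groups overlapped, and genes of the list share their arrays. Endothelial markers had a median of -0.13, with Sox17 (-0.59 ± 0.18), Pecam1 (-0.42 ± 0.15) and Gpihbp1 (-0.40 ± 0.15) negative at an unadjusted p under 0.05. Their median was 0.33 as deposited, where all probe sets had 0.41, and 0.05 with median centring, where they had 0.13. Macrophage and myeloid markers rose with TAC in both genotypes, 13 of 26 in wild type and 17 of 26 in G4D (4.66% and 12.4% over all genes), with a median interaction of -0.05.

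Glycolysis genes split in sign: the phosphofructokinases Pfkp (0.80 ± 0.20) and Pfkl (0.45 ± 0.14) were positive, and Pfkfb2 (-0.62 ± 0.18), which makes their activator, Aldoc (-0.50 ± 0.20) and Eno3 (-0.27 ± 0.11) were negative at an unadjusted p under 0.05. Of 24 tested immediate early and stress genes, with a median of 0.01, Nr4a1 (-0.77 ± 0.32), Gadd45b (-0.65 ± 0.20), Ier5 (-0.55 ± 0.25) and Egr3 (-0.43 ± 0.16) were negative. A second Egr3 probe set, whose sham means were below the filter level, had the opposite sign. The positive one, the chaperone Hspa1a, had means below the filter level in every group but G4D TAC. None of these was called.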
